A study of Homo sapiens with 6 samples.

Results

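C/D box snoRNAs that guide RNA methylation were compared between HEK293T-Rex cells (HEK293 in the sample labels) overexpressing the D391N mutant of DIS3L2 (3 libraries) and control HEK293T-Rex cells (3 libraries). DIS3L2 is a cytoplasmic 3′ to 5′ exoribonuclease that degrades uridylated RNA, and D391N carries a substitution in its catalytic site. The construct was stably integrated in this human embryonic kidney line, which has a doxycycline-inducible promoter system. Per the study's methods, overexpression was induced with doxycycline. Whether the control cells of this experiment also received doxycycline is not given in the sources used here. All D391N libraries came from the same line and all controls from another, so the construct and the line cannot be told apart. If the controls received no doxycycline, its effect cannot be told apart from these either. The label rests on symbols beginning with SNORD. Of 332 such transcripts in the table of 207167 transcripts, 8 belonging to U3, U8, U13, SNORD14A and SNORD14B were left out because these RNAs act in rRNA cleavage and processing. SNORD14C, SNORD14D and SNORD14E, which share a number with SNORD14A and SNORD14B, were not left out and are among the members. Of the other 324 transcripts, the 125 with a mean level of at least 1 RPKM over the 6 libraries (reads scaled by transcript length and library size) were the members studied, and the 199 under 1 RPKM were not. The mean level therefore chose the members, and the order of levels is a description. Each member was a gene of its own, and they carried 117 symbols: 106 were matched to the RefSeq gene of their symbol by chromosome and length, while 19 were not, most of them further copies of a snoRNA gene. Membership did not require a known methylation target, and some members, such as SNORD97, are on none of the guide lists used here.

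Box C/D snoRNAs are short nucleolar RNAs that carry an RUGAUGA element near the 5′ end (box C) and a CUGA element near the 3′ end (box D). SNU13, NOP56, NOP58 and the methyltransferase fibrillarin (FBL) assemble on these boxes. The stretch just upstream of box D, or of an internal copy called D′, pairs with rRNA or with U6 snRNA, and fibrillarin methylates the ribose of the target nucleotide opposite the fifth base before the box. In human cells most of these RNAs are excised from introns, often of genes for ribosomal proteins or of non-coding host genes, and their ends are then trimmed by exonucleases.

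Members were 64 to 237 nt long, with a median of 79.0 nt, and 110 of them were under 100 nt. The boxes were looked for in the annotated sequence on the RNA strand only: TGATGA within the first 30 bases and CTGA within the last 25 bases, windows that do not overlap in RNAs of this length. TGATGA was found in 78 members (62.4%), CTGA in 118 (94.4%) and both in 76 (60.8%). Both were present in 56.8% of the SNORD transcripts under 1 RPKM and in 0.256% of the SNORA transcripts, the H/ACA box class, which lacks these boxes. A member without TGATGA can carry a variant of box C that these letters miss. CTGA was thus missing from the window in 7 members, and the annotated ends set which bases fall in it.

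Sequences are shown for the most abundant member (SNORD24), for a pair from the RPL13A gene that were lower with D391N (SNORD33 and SNORD32A), and for the 2 members with at least 10 estimated reads that were higher in each D391N library (SNORD86 and SNORD11). They are annotated transcripts in GRCh37, read 5′ to 3′ as DNA, with TGATGA and CTGA in capitals where found. SNORD24 lies in RPL7A (chr9:136216251-136216325, + strand). SNORD33 (chr19:49993872-49993956, + strand) and SNORD32A (chr19:49993222-49993305, + strand) lie in RPL13A, SNORD86 in NOP56 (chr20:2636743-2636828, + strand) and SNORD11 in NOP58 (chr2:203157772-203157859, + strand).
SNORD24: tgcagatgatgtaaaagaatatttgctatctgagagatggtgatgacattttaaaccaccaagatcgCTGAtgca
SNORD33: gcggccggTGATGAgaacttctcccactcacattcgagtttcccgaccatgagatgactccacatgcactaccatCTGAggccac
SNORD32A: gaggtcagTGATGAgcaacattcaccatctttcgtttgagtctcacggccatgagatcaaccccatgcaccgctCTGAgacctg
SNORD86: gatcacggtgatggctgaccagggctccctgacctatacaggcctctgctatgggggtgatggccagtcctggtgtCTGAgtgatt
SNORD11: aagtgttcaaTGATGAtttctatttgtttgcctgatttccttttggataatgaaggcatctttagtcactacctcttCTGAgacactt

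In 3 of the U6 guides, capitals mark instead the longest stretch that can pair with U6, the snRNA of the spliceosome's catalytic centre, by Watson-Crick pairs without a gap. The 3 are those in which a CTGA follows this stretch directly or after 1 base. In the other U6 guides no CTGA followed the longest stretch so closely, and no U6 position was assigned. The 3 therefore do not stand for all U6 guides. Positions of U6 are counted from 1 at the 5′ end of the 107-nt RNU6-1 transcript. SNORD8 (CHD8, chr14:21865451-21865560, - strand) held 11 bases that pair with U6 positions 50 to 60. An internal CTGA follows, which places the fifth base before it opposite U6 position 53. In SNORD7 (SNHG30, chr17:33900676-33900772, + strand) 11 bases directly before box D paired with positions 43 to 53, with the fifth base opposite position 47. In SNORD67 (CKAP5, chr11:46783939-46784049, - strand) the 10 bases before box D paired with positions 56 to 65, with the fifth base opposite position 60. These matches describe the letters and do not show methylation, which RNA-seq did not measure.
SNORD8: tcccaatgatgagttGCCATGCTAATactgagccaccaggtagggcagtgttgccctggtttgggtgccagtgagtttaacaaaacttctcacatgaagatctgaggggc
SNORD7: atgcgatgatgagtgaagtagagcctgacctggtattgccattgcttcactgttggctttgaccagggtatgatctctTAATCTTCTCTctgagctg
SNORD67: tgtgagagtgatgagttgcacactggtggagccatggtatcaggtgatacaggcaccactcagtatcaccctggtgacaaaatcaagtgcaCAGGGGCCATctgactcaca

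Before the results, the cells and libraries were checked. DIS3L2, summed over its transcripts, was at 369, 467 and 512 RPKM in replicates 1, 2 and 3 with D391N, compared with 11.8, 12.9 and 14.6 RPKM in the controls. Of the kidney line's markers, LIN28B (28.1 to 31.9 RPKM with D391N, 15.8 to 25.3 RPKM in controls), NEFL and ENO2 were present, whereas PAX2 did not exceed 1.93 RPKM and NEFM 0.638 RPKM in any library. Of 6 markers of other cell types, CD3E, INS and MYH7 did not exceed 0.342 RPKM, ALB and PTPRC did not exceed 1.77 RPKM, and HBB reached 7.12 RPKM in control replicate 2. Relative depth, estimated from the values of transcripts that had no reads, differed by up to 1.62-fold between libraries, and short transcripts of 60 to 100 nt without reads are listed at 0.326 to 0.528 RPKM, so values in that range stand for no reads. The D391N libraries stood apart from each other. D391N replicate 1 was above the lowest control for most members, and replicates 2 and 3 were mostly below all controls. The labels do not say whether the libraries came from separate cultures, so p-values measure only the spread between these libraries, which may be technical. Results are given with and without single D391N libraries where these decide them.

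Most C/D box snoRNAs had a lower mean level in D391N-expressing cells than in controls, but the difference varied widely between the D391N libraries and no member passed the test. The summed level of the 125 members was 39937, 3136 and 10288 RPKM in replicates 1, 2 and 3 with D391N, compared with 37652, 23028 and 36686 RPKM in those of the controls. By this sum D391N replicate 1 was the highest of the 6 libraries, D391N replicates 2 and 3 were the lowest, and the conditions overlapped. The sum leans on SNORD24, which alone was at 16406 RPKM in D391N replicate 1. By the median member level D391N replicate 1 (39.1 RPKM) was below control replicates 1 and 3 (46.5 and 49.4 RPKM) and above control replicate 2 (27.0 RPKM). The mean sum was 17787 ± 19513 RPKM with D391N, less than its own SD, and 32455 ± 8179 RPKM in controls (SD, n = 3 each). The control mean was 10.3-fold above D391N replicate 2 and 3.15-fold above D391N replicate 3. Shares were also taken of RPKM multiplied by transcript length, over the transcripts with a known length. By this measure members took 0.345%, 0.0277% and 0.0872% with D391N and 0.329%, 0.203% and 0.318% in the controls. In these bulk libraries, fewer cells with a snoRNA and less of it per cell cannot be told apart.

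**Figure D1:**
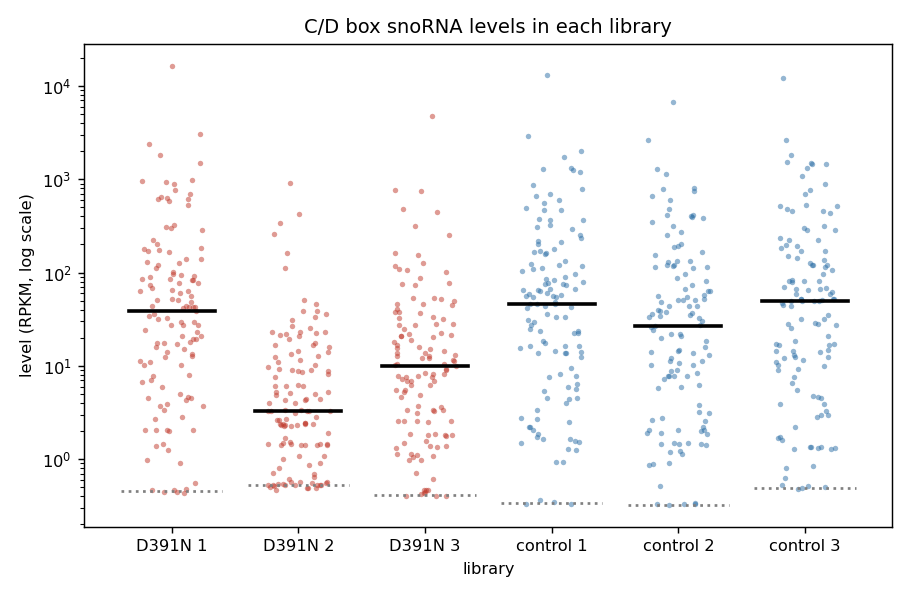
Level of each of the 125 C/D box snoRNAs (points, RPKM on a log axis) in each library, with the median of the library as a black bar and the level at which 60 to 100 nt transcripts without reads are listed as a dotted line. The medians were 39.1, 3.30 and 9.95 RPKM with D391N (replicates 1, 2 and 3) and 46.5, 27.0 and 49.4 RPKM in controls, so D391N replicate 1 sits among the controls.

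In limma on log2(RPKM + 0.1), where folds of low transcripts are understated, 0 of the 125 members had a Benjamini-Hochberg adjusted p under 0.05, against 33 of all 54671 transcripts tested (0.0604%). The smallest limma adjusted p of a member was 0.115. It belonged to a SNORD19 copy (ENST00000391191) that reached the mean of 1 RPKM through its controls alone, so it supports nothing about the members. Without the intensity trend in limma the number of members past the threshold was also 0. At an unadjusted p under 0.05 there were 40 members (32.0%), of which 37 were lower and 3 higher with D391N, against 9624 of all transcripts (17.6%). By non-overlap, 31 members (24.8%) lay below all controls in each D391N library, against 15.6% of all transcripts tested, and 3 (2.40%) lay above all controls, against 10.1%. The 3 were SNORD86, SNORD11 and SNORD18C. Of these, SNORD18C reached the mean of 1 RPKM through D391N alone. Among the 31, SNORD68, the SNORD19 copy and a SNORD74 copy (ENST00000364155) reached it through the controls alone. For such members the filter itself favours non-overlap, so they support nothing about the members. The mean log2 level was lower with D391N for 108 members and higher for 17 (86.4% lower, against 54.2% of all transcripts). The median log2 fold change, D391N minus control, was -1.50 over the members (quartiles -2.26 and -0.79) and -0.072 over all transcripts.

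The order of the D391N libraries was shared by most members. D391N replicate 2 was the lowest of the 6 libraries in 90 members, and replicate 1 was above replicate 3 and replicate 3 above replicate 2 in 95. Replicate 1 was above the lowest control in 90 members and above the highest control in 46. By contrast, replicate 2 was below all controls in 102 members and replicate 3 in 96. Among the controls, replicate 2 was the lowest in 94 members. By the inverse of the posterior variance, which estimates the reads behind a value, 62 members had fewer than 3 estimated reads in D391N replicate 2 and 34 in D391N replicate 3, compared with 19 to 23 in the other libraries, so for many members the value in these libraries is near the level of no reads. Only 8 members had fewer than 3 estimated reads in each of the 6 libraries.

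Without D391N replicate 1, 49 members (39.2%) had an adjusted p under 0.05 in limma, 47 of them lower and 2 higher, against 4961 of all transcripts (9.07%), and the median log2 fold change was -2.28. The 2 higher ones were SNORD86 and SNORD56B, the latter a member through its D391N level alone. Among the 47 lower ones, the SNORD19 copy ENST00000391191 was a member through its control level alone. SNORD32A (0.532 and 0.472 RPKM) and SNORD18A (0.864 and 0.988 RPKM) were under 1 RPKM in D391N replicates 2 and 3. Without D391N replicate 1 they too were over the mean of 1 RPKM through the controls alone. The calls of these RNAs therefore support nothing about the members. Without D391N replicate 2 the median was -0.82 and 0 members passed. Without D391N replicate 3 it was -1.41, also with 0.

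In other small RNAs D391N replicates 2 and 3 were also the lowest libraries by their medians, which was not the case for mRNAs. On the log2 scale, the median deviation of the C/D box snoRNAs from their mean over all libraries reached 0.92, -2.28 and -0.86 with D391N and 1.18, 0.31 and 0.89 in controls. For 132 SNORA RNAs it was 0.62, -2.15 and -1.0 with D391N and 1.02, 0.64 and 0.90 in the controls. Transcripts of biotype protein_coding lay between -0.09 and 0.11 in all 6 libraries. The median log2 fold change was -1.50 for the C/D box members, -1.66 for SNORA RNAs, -1.36 for 21 small Cajal body RNAs and -1.64 for 609 snRNAs. A difference between the C/D box class and these other small RNAs was not tested. The share of transcripts whose D391N libraries all lay below all controls was 24.8% for C/D box members, 38.6% for SNORA RNAs, 66.7% for small Cajal body RNAs and 40.7% for snRNAs. In small Cajal body RNAs and snRNAs the median of D391N replicate 1 (0.19 and 0.26) was below that of each control. In SNORA RNAs it lay just below the lowest control (0.62 against 0.64 in control replicate 2). In C/D box members it was above control replicate 2 (0.92 against 0.31) and close to control replicate 3 (0.89). What the D391N libraries differ in was not tested.

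**Figure D2:**
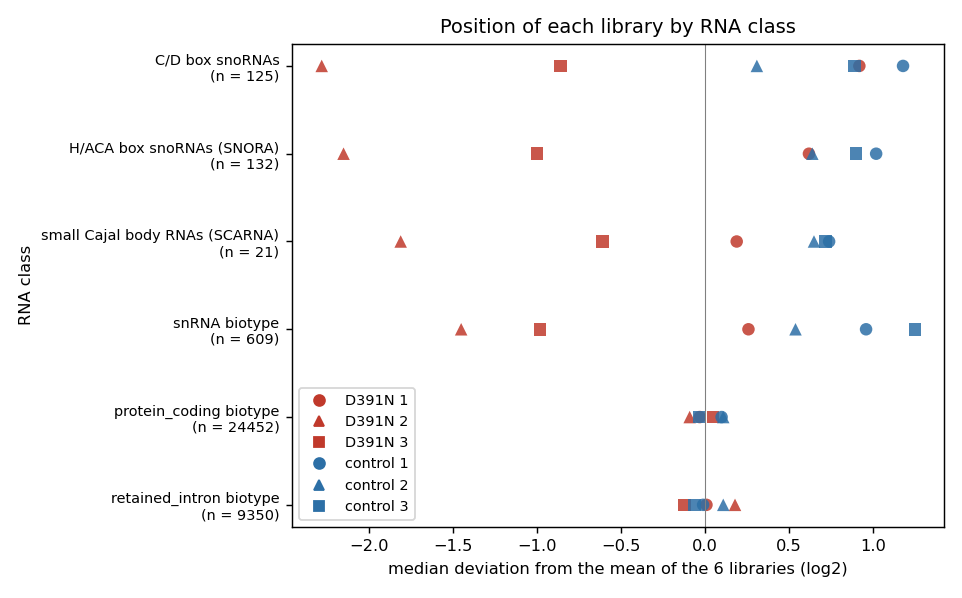
Median deviation of each library from the mean of the 6 libraries (log2, x axis) for 6 RNA classes, with D391N libraries in red and controls in blue and the replicate number given by the symbol. In C/D box snoRNAs D391N replicate 2 is at -2.28 and D391N replicate 1 at 0.92, whereas protein_coding and retained_intron transcripts sit near 0 in all libraries.

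The most abundant member was SNORD24, a 28S rRNA guide, which held 35.9% of the summed level, and the 10 most abundant held 71.0%. SNORD24 was at 16406, 912 and 4746 RPKM with D391N (replicates 1, 2 and 3, as in all that follows) and at 13182, 6743 and 12078 RPKM in controls. Its D391N libraries included both the highest and the lowest value, and the log2 fold change was -1.31 (standard error 1.03, limma adjusted p = 0.530). SNORD36A, an 18S guide from the same host gene, was at 1814, 162 and 483 RPKM with D391N and at 1244, 670 and 1452 RPKM in controls. SNORD36B, also an 18S guide of RPL7A, was at 936, 14.1 and 109 RPKM with D391N and at 1327, 753 and 1330 RPKM in controls. In each of these RNAs D391N replicate 1 was above control replicate 2, and the other D391N libraries were below all controls. The log2 fold changes were -1.03 for SNORD36A and -3.28 for SNORD36B (limma adjusted p = 0.553 and 0.283). An exon of RPL7A transcript ENST00000485706 covers SNORD36B. This transcript was at 8.44, 52.1 and 21.8 RPKM with D391N and at 16.2, 11.7 and 16.3 RPKM in controls. How far reads divided between them set the value of SNORD36B was not tested.

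SNORD55, SNORD38A and SNORD38B, also among the 10 most abundant members, are 28S guides. SNORD55 was at 636, 21.7 and 154 RPKM with D391N and at 1303, 1127 and 1515 RPKM in controls. It was the only one of the 10 whose conditions did not overlap, and its log2 fold change was -3.34 (standard error 1.11, limma adjusted p = 0.217). SNORD38A was at 994, 39.0 and 162 RPKM with D391N and at 1183, 780 and 1492 RPKM in controls. SNORD38B was at 967, 38.9 and 86.9 RPKM with D391N and at 866, 352 and 776 RPKM in controls. For SNORD38B, D391N replicate 1 was above all controls. Of the remaining abundant 28S guides, SNORD21 of RPL5 was at 1477, 113 and 444 RPKM with D391N and at 1749, 803 and 1457 RPKM in controls. SNORD104, a guide within the non-coding gene SNHG25, was at 776, 45.8 and 106 RPKM with D391N and at 784, 482 and 1089 RPKM in controls. SNORD97, which is on none of the guide lists used here, was at 2401, 340 and 748 RPKM with D391N and at 2010, 1294 and 1809 RPKM in controls. It overlaps an exon on the opposite strand, so reads of the RNAs cannot be told apart if strand was not used.

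**Figure D3:**
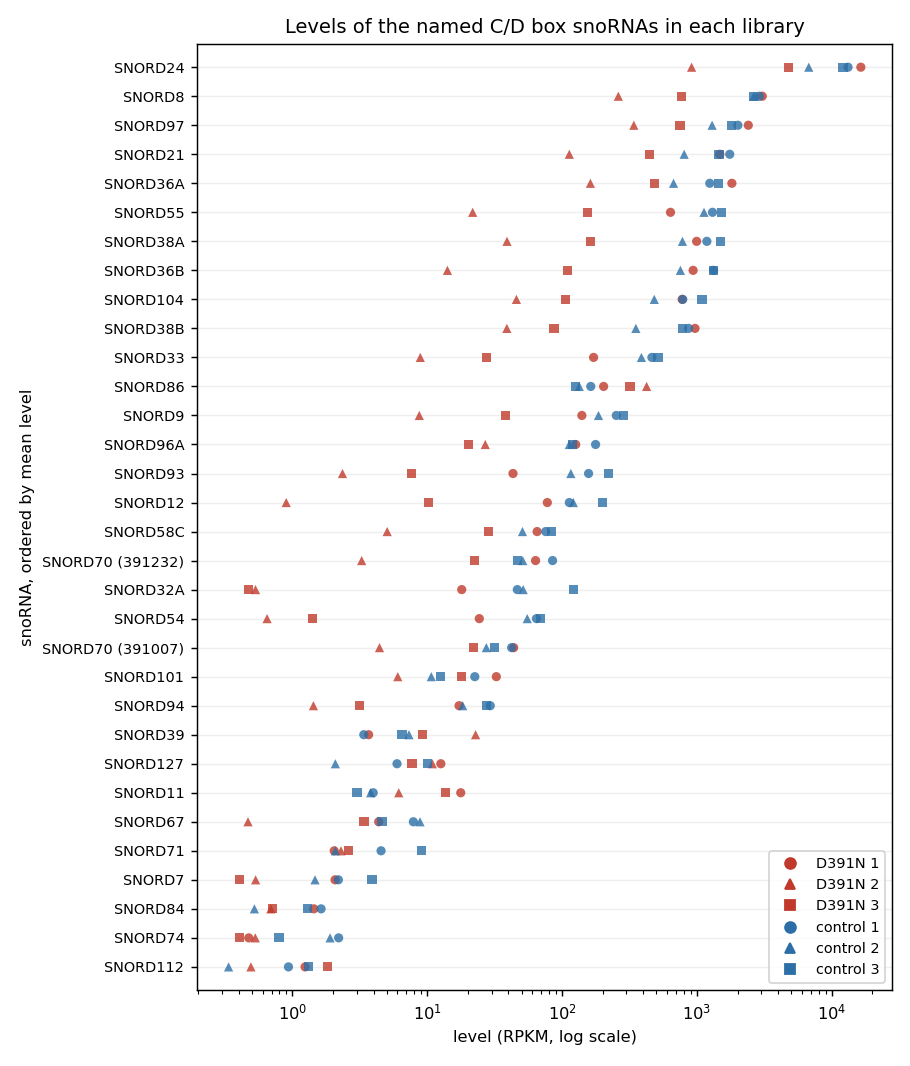
Level of each named C/D box snoRNA (RPKM on a log axis) in the 6 libraries, ordered by mean level, with D391N libraries in red, controls in blue and replicates 1, 2 and 3 as circles, triangles and squares; the SNORD70 copies carry the last digits of their transcript numbers. For SNORD24 the values run from 912 RPKM in D391N replicate 2 to 16406 RPKM in D391N replicate 1, and SNORD86 and SNORD11 are the rows in which all red symbols lie to the right of all blue ones.

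The largest negative differences among members with at least 10 estimated reads were in SNORD32A, SNORD54, SNORD93, SNORD12 and SNORD33, and in all 5 each D391N library was below each control. SNORD32A guides methylation of both 18S and 28S rRNA. It was at 18, 0.532 and 0.472 RPKM with D391N, where the lower values are at or near the level of no reads, and at 46.5, 51.4 and 122 RPKM in controls (log2 fold change -5.15, standard error 1.32, limma adjusted p = 0.160). In all, 4 annotated RPL13A transcripts cover SNORD32A with an exon. The most abundant of them, the nonsense-mediated decay transcript ENST00000484279, was at 13.8, 458 and 115 RPKM with D391N and at 22.2, 15.5 and 21.6 RPKM in controls. D391N replicate 1 was thus the highest of the D391N libraries for SNORD32A and the lowest for this transcript, and reads that match both are divided between them by an estimate. How far that division sets the value of SNORD32A was not tested.

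SNORD33, an 18S guide in the same gene, was at 171, 8.87 and 27.5 RPKM with D391N and at 463, 387 and 514 RPKM in controls (log2 fold change -3.69, standard error 0.98, limma adjusted p = 0.168). The RPL13A transcripts that cover it did not exceed 1.40 RPKM in any library. SNORD93, an 18S guide in the non-coding gene SNHG26, was at 43.2, 2.35 and 7.65 RPKM with D391N and at 157, 116 and 222 RPKM in controls. The log2 fold change of SNORD93 was -4.09 (standard error 0.97, limma adjusted p = 0.146). No other annotated exon covers SNORD93. SNORD12, a 28S guide in ZFAS1, was at 77.6, 0.899 and 10.2 RPKM with D391N and at 113, 121 and 199 RPKM in controls. SNORD54, in RPS20, was at 24.3, 0.648 and 1.40 RPKM with D391N and at 64.5, 55.1 and 68.8 RPKM in controls. The log2 fold changes of SNORD12 and SNORD54 were -3.91 and -4.38 (limma adjusted p = 0.239 and 0.174). Exons of other transcripts cover both. ZFAS1 transcript ENST00000623640, over SNORD12, was at 17.6, 30.6 and 17.8 RPKM with D391N and 19.6, 22.9 and 15.0 RPKM in controls. RPS20 transcript ENST00000521289, over SNORD54, was at 19.4, 4.99 and 11.1 RPKM with D391N and 23.0, 17.3 and 16.1 RPKM in controls. Their part in these values was not tested. Without D391N replicate 1 all 5 passed the threshold (limma adjusted p between 0.00313 and 0.0263). The log2 fold changes were -5.88 for SNORD54, -5.44 for SNORD12, -5.19 for SNORD93 and -4.84 for SNORD33. For SNORD32A the D391N values left are those at or near the level of no reads. Its call supports nothing about the members, and no fold is given for this setting. Without D391N replicate 2 none of the 5 passed (limma adjusted p between 0.202 and 0.325). The log2 fold changes were then -4.37 for SNORD32A, -3.37 for SNORD54, -2.30 for SNORD12, -3.12 for SNORD93 and -2.72 for SNORD33.

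Of the 31 members below the controls in each D391N library, SNORD17, SNORD35A and SNORD23 were among the less scattered; they were chosen after their values were seen. SNORD17, a 28S guide and at 237 nt the longest member, was at 51.2, 35.7 and 45.6 RPKM with D391N and at 74.4, 74.2 and 78.8 RPKM in controls (log2 fold change -0.79, standard error 0.24, limma adjusted p = 0.195). SNORD35A, a 28S guide in RPL13A, was at 21.1, 9.69 and 10.6 RPKM with D391N and at 33.4, 38.9 and 44.6 RPKM in controls (log2 fold change -1.57, standard error 0.35, limma adjusted p = 0.136). SNORD23, in NOP53, was at 7.14, 3.98 and 3.36 RPKM with D391N and at 12.4, 12.2 and 12.0 RPKM in controls (log2 fold change -1.40, standard error 0.32, limma adjusted p = 0.141). SNORD68, a guide for 18S and 28S rRNA, was also below in each library, but its control level rested on replicate 2: it was at 0.977, 0.563 and 0.469 RPKM with D391N and at 1.74, 35.5 and 2.81 RPKM in controls.

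Few members were higher with D391N. SNORD86, in NOP56, was at 203, 423 and 319 RPKM with D391N and at 163, 134 and 126 RPKM in controls. All D391N libraries were above all controls, and replicate 2, the lowest library for most members, was the highest here. With means of 315 ± 110 RPKM and 141 ± 19.4 RPKM (SD, n = 3 each), its log2 fold change was 1.10 (standard error 0.34, limma adjusted p = 0.199). It was 1.39 without D391N replicate 1 (limma adjusted p = 0.0324) and 0.86 without D391N replicate 2 (limma adjusted p = 0.305). The sequence of SNORD86 shown above has CTGA near its 3′ end and no TGATGA in the first 30 bases. It is covered by an exon in 5 annotated NOP56 transcripts, 2 of which were, like SNORD86, highest in D391N replicate 2: ENST00000492135 was at 0.419, 27.1 and 18 RPKM with D391N and at 0.351, 1.66 and 0.303 RPKM in controls, and ENST00000480992 at 4.95, 21.3 and 0.798 RPKM with D391N and 0.671, 2.77 and 0.881 RPKM in controls. Their part in the value of SNORD86 was not tested. SNORD110, an 18S guide also in NOP56, was at 130, 9.22 and 32.5 RPKM with D391N and at 170, 95.4 and 150 RPKM in controls, like most members.

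SNORD11, an 18S guide in NOP58, was at 17.7, 6.14 and 13.7 RPKM with D391N and at 3.97, 3.80 and 3.01 RPKM in controls (log2 fold change 1.65, standard error 0.42, limma adjusted p = 0.159). No other annotated exon covers it. SNORD18C, a 28S guide in RPL4, was at 0.552, 16.7 and 1.57 RPKM with D391N and at 0.333, 0.332 and 0.523 RPKM in controls, so its rank rested on values near the level of no reads apart from D391N replicate 2. SNORD56B was at 0.450, 21.0 and 6.96 RPKM with D391N and at 0.334, 0.324 and 0.479 RPKM in controls. Its controls and D391N replicate 1 were at the level of no reads, and it reached a mean of 1 RPKM through D391N replicates 2 and 3 alone, so its call without D391N replicate 1 supports nothing about the members and no fold is given. The next members in the order of differences, among those with at least 10 estimated reads, overlapped between conditions. SNORD127 was at 12.6, 10.9 and 7.69 RPKM with D391N and at 5.96, 2.08 and 10.1 RPKM in controls. SNORD39 was at 3.67, 22.8 and 9.17 RPKM with D391N and at 3.38, 7.31 and 6.49 RPKM in controls. SNORD101 was at 32.5, 6.04 and 18 RPKM with D391N and at 22.5, 10.7 and 12.6 RPKM in controls.

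Members were grouped by the RNA they are known to guide, counting only those matched to the RefSeq gene of their symbol. Of 21 guides of 18S rRNA, 19 had a lower mean with D391N and 2 a higher one; 6 were below in each D391N library and 1, SNORD11, above, and the median log2 fold change was -1.80. Of 34 guides of 28S rRNA, 30 were lower and 4 higher, with 11 below in each library and 1, SNORD18C, above, and a median of -1.88. None of either group passed the threshold in limma, and 8 and 13 had an unadjusted p under 0.05. Over all transcripts tested the shares were 54.2% with a lower mean, 15.6% below, 10.1% above and 17.6% with an unadjusted p under 0.05. Both guides of 5.8S rRNA had lower means. SNORD96A, in RACK1, was at 126, 26.9 and 20.2 RPKM with D391N and at 177, 113 and 120 RPKM in controls (log2 fold change -1.71, limma adjusted p = 0.267). SNORD71, in AP1G1, was at 2.04, 2.29 and 2.59 RPKM with D391N and at 4.54, 2.08 and 9.0 RPKM in controls (log2 fold change -0.91, limma adjusted p = 0.388). The medians of the groups lie near the -1.50 of all members, and a difference between the groups was not tested.

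All 5 guides of U6 had lower means with D391N, and 3 of them were below in each library, against 54.2% and 15.6% of all transcripts tested, yet none passed the threshold. SNORD8 was at 3048, 261 and 769 RPKM with D391N and at 2901, 2643 and 2610 RPKM in controls. Here D391N replicate 1 was above all controls (log2 fold change -1.68, standard error 0.84, limma adjusted p = 0.344). SNORD9, which lies in the same gene, was at 140, 8.72 and 38.2 RPKM with D391N and at 252, 186 and 285 RPKM in controls, with the conditions apart (log2 fold change -2.71, standard error 0.92, limma adjusted p = 0.221). SNORD94, in PTCD3, was at 17.2, 1.43 and 3.16 RPKM with D391N and at 29.3, 18.3 and 27.4 RPKM in controls, and SNORD67 at 4.36, 0.468 and 3.39 RPKM with D391N and 7.88, 8.83 and 4.62 RPKM in controls. SNORD7 was close to the threshold of membership throughout, at 2.07, 0.533 and 0.407 RPKM with D391N and 2.19, 1.47 and 3.89 RPKM in controls. The host gene CHD8 of SNORD8 and SNORD9 was at 32.9, 37.6 and 33.3 RPKM with D391N and at 38.4, 43.9 and 40.5 RPKM in controls.

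SNORD58C and SNORD70 are described because the study lists hybrid reads for them. SNORD58C, a 28S guide in RPL17, was at 65.2, 5.04 and 28.4 RPKM with D391N and at 75.5, 50.8 and 83.3 RPKM in controls (log2 fold change -1.69, standard error 0.87, limma adjusted p = 0.353). SNORD70, an 18S guide in NOP58, has a pair of copies in that gene whose sequences are shown because reads can match both. ENST00000391232 (chr2:203141154-203141241, + strand) was at 63.5, 3.26 and 22.5 RPKM with D391N and at 84.9, 51.0 and 46.7 RPKM in controls. ENST00000391007 (chr2:203142831-203142915, + strand) was at 43.7, 4.42 and 22.1 RPKM with D391N and at 42.2, 27.4 and 31.6 RPKM in controls. In both copies D391N replicate 1 lay within the control range or above it and the others below, with log2 fold changes of -1.80 and -1.02 (limma adjusted p = 0.382 and 0.519), and their separate levels are uncertain.
SNORD70 ENST00000391232: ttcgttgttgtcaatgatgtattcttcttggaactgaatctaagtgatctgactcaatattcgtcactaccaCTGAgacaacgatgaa
SNORD70 ENST00000391007: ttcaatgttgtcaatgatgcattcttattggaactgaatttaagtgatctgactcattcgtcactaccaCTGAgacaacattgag

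Host genes differed less between conditions than the snoRNAs in them. Of the members, 121 lay inside a host gene of the table, and these hosts numbered 72. Their median log2 fold change, from RPKM summed over the host's own transcripts, was -0.11, and that of the 121 members was -1.54. The log2 fold change was lower than that of the host for 105 of the 121, and 66 of the 72 hosts differed by less than 1 on the log2 scale. RPL7A, host of SNORD24, was at 763, 540 and 612 RPKM with D391N and at 881, 786 and 944 RPKM in controls. This host was lower in each D391N library, with a log2 fold change of -0.46, while the 4 snoRNAs in it ranged from -3.28 to -1.03. The snoRNAs of RPL13A ranged from -5.15 to -1.57, with the host at -0.70. Members of the same host also went in different directions: in NOP58 they ranged from -1.80 for SNORD70 to 1.65 for SNORD11, with the host at 0.65.

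**Figure D4:**
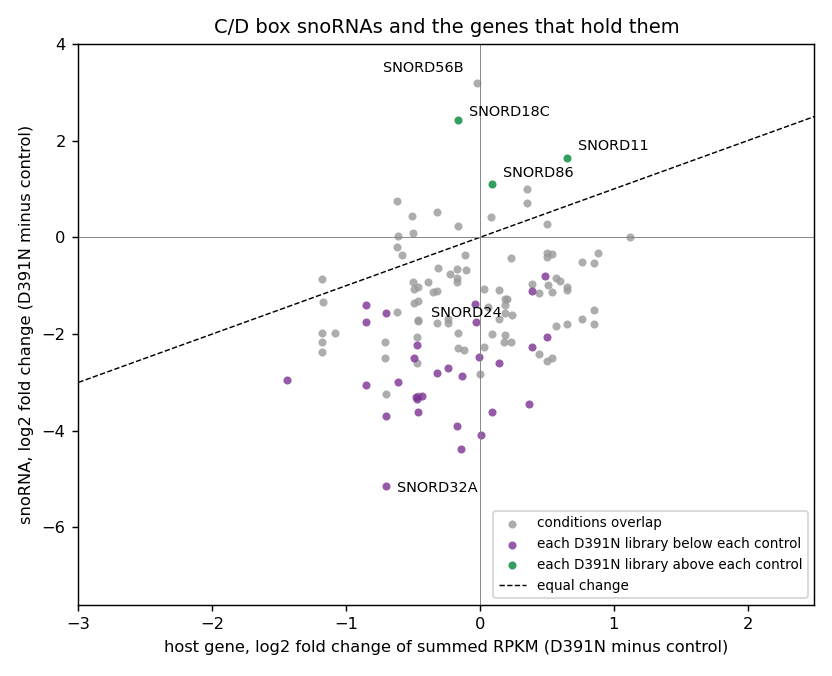
Log2 fold change of each of 121 C/D box snoRNAs (y axis) against that of the summed RPKM of its host gene (x axis), D391N minus control, coloured by whether the libraries of the conditions overlap. 105 points lie below the dashed line of equal change, and SNORD86, SNORD11 and SNORD18C are the points whose D391N libraries are all above the controls.

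Exons of other transcripts of the annotation covered 44 members, many of them annotated as retained introns. Their median log2 fold change was -1.90, and it was -1.28 for the 81 members that no other exon on the same strand covers, of which 15 were below in each D391N library and 1 above, against 15.6% and 10.1% of all transcripts tested. For SNORD24 the covering RPL7A transcript ENST00000489392 was at 651, 71.5 and 283 RPKM with D391N and at 492, 329 and 495 RPKM in controls, in the same order of D391N libraries as the snoRNA inside it.

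The median difference varied with the level of the members without following it throughout. Of 4 members averaging 1000 RPKM or more, the median log2 fold change was -1.45, with 0 below the controls in each D391N library. For 26 members between 100 and 1000 RPKM it was -2.44, with 8 below and 1 above. For 55 members between 10 and 100 RPKM it was -1.71, with 18 below and 0 above, and for 40 members between 1 and 10 RPKM it was -0.41, with 5 below and 2 above. Of all transcripts tested 15.6% were below and 10.1% above, so the share below in the lowest of these classes was under that of all transcripts. Over the 125 members Spearman's rho of the mean level with the log2 fold change was -0.57; these points share libraries, and low members are pulled toward 0 by the pseudocount and by the level of no reads. Length had a rho of -0.06 with the log2 fold change, and members under 100 nt and of at least 100 nt had medians of -1.38 and -1.75. The 106 members matched to a RefSeq gene had a median of -1.68, and the 19 others, with a median level of 1.86 RPKM, had -0.54. Of these, an RNA called SNORD78 on chromosome 2 was the most abundant, at 535, 22.3 and 74.7 RPKM with D391N and 371, 87.3 and 192 RPKM in controls. Reads of such a copy cannot be told apart from those of a near-identical gene that is not analysed here.

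At the threshold of 1 RPKM the members just inside were SNORD112 (mean 1.02 RPKM), SNORD84 (1.05 RPKM) and a SNORD74 copy (1.05 RPKM), and those just outside were copies named SNORD116 (0.972 RPKM), SNORD75 (0.944 RPKM) and SNORD45 (0.901 RPKM). SNORD112 was at 1.24, 0.492 and 1.81 RPKM with D391N and at 0.934, 0.336 and 1.32 RPKM in controls, SNORD84 at 1.44, 0.691 and 0.714 RPKM with D391N and 1.63, 0.522 and 1.29 RPKM in controls, and the SNORD74 copy at 0.474, 0.530 and 0.405 RPKM with D391N and 2.20, 1.90 and 0.795 RPKM in controls. Of the snoRNAs of the imprinted clusters on chromosomes 14 and 15, which have no known rRNA target, 114 transcripts were in the table, and the highest mean among them was the 1.02 RPKM of the SNORD112 copy, which lies on chromosome 8. Of the list of 10 snoRNA names from the host GAS5 and of 7 from SNHG1, only copies at other places were members, 5 and 2 of them, and the others were not analysed here. In all, 117 members had a mean of at least 1 RPKM in both conditions, 3 only with D391N and 5 only in controls.

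The C/D box RNAs that act in rRNA cleavage, left out of the members, are given for comparison. SNORD118, the U8 RNA, was at 2020, 47.6 and 284 RPKM with D391N and at 2507, 1699 and 1180 RPKM in controls. SNORD13 was at 530, 21.3 and 98.3 RPKM with D391N and at 353, 161 and 208 RPKM in controls. Both followed the order of D391N libraries seen in the guides, and their log2 fold changes were -2.51 and -1.14 (limma adjusted p = 0.341 and 0.606). SNORD14A and SNORD14B had log2 fold changes of -1.55 and -2.03 (limma adjusted p = 0.454 and 0.252). The U3 genes had means under 3 RPKM, and their limma adjusted p lay between 0.586 and 0.975. Their log2 fold changes were -0.11 for SNORD3A, 0.72 for SNORD3B-1, -1.05 for SNORD3C and -0.06 for SNORD3B-2.

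The proteins of the snoRNP were measured by mRNA, summed over the transcripts of each gene. FBL, the methyltransferase, was at 161, 125 and 119 RPKM with D391N and at 262, 310 and 274 RPKM in controls (135 ± 22.7 and 282 ± 24.8 RPKM, SD, n = 3). All D391N libraries were below all controls, with replicate 1 among them, and the log2 fold change of the sum was -1.08. None of its 11 tested transcripts passed the threshold (smallest limma adjusted p = 0.121, for ENST00000221801 at 71.9, 32.4 and 39.7 RPKM with D391N and 139, 151 and 139 RPKM in controls). NOP58, a scaffold protein of the particle, was at 167, 307 and 249 RPKM with D391N and at 148, 156 and 142 RPKM in controls, above in each library, with a log2 fold change of the sum of 0.65. NOP56, its close relative in the same particle, was at 356, 383 and 355 RPKM with D391N and at 316, 356 and 356 RPKM in controls, and SNU13, which binds the kink-turn formed by boxes C and D, at 45.8, 37.7 and 44.3 RPKM with D391N and 54.5, 50.1 and 40.0 RPKM in controls, both overlapping between conditions.

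Of 8 genes for assembly factors of the particle, 3 were above in each D391N library, 1 was below and 4 overlapped, and no transcript of them passed the threshold. Of single transcripts 10.1% were above and 15.6% below, and the share for sums over genes was not computed. RPAP3, a subunit of the R2TP chaperone complex, was at 76.4, 124 and 97.0 RPKM with D391N and at 54.7, 59.9 and 53.2 RPKM in controls. ZNHIT6, a box C/D assembly factor, was at 19.4, 32.8 and 23.2 RPKM with D391N and at 18.3, 19.0 and 16.3 RPKM in controls, and NUFIP1, which tethers SNU13 during assembly, at 8.0, 9.89 and 11.3 RPKM with D391N and 5.63, 6.92 and 5.67 RPKM in controls. PIH1D1, another R2TP subunit, was the one below, at 32.5, 24.8 and 28.9 RPKM with D391N and 41.0, 41.5 and 38.8 RPKM in controls. RUVBL1, RUVBL2, ZNHIT3 and NOLC1 had log2 fold changes of the sum between -0.20 and 0.26.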

How the data were processed

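RNA from 3 D391N and 3 control samples was depleted of rRNA (RiboMinus) and prepared with a ScriptSeq kit; single-end reads were trimmed with cutadapt, mapped by Segemehl against the Ensembl transcriptome, non-coding RNAs included (hg38 in the submitters' processing notes), and quantified with BitSeq, versions not given in the sources used here. Per the study's methods 3 libraries shared a lane, and which ones is not given in the sources used here, so an effect of the lane was not tested. The values the authors deposited are natural log RPKM: for each transcript in each library a posterior mean, with the posterior variance of that estimate as a score. BitSeq divides reads that match several transcripts, so levels of snoRNA copies and of transcripts that cover them depend on each other, and its own differential test, which needs posterior samples, was not repeated. Every value column was used.

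Values were exponentiated to RPKM. Estimated reads are 1 over the variance, with a floor of 3. They are no read totals and cover counting and assignment error only. All 54671 transcripts averaging 1 RPKM or more over the libraries were compared on log2(RPKM + 0.1) with limma 3.58.1 (empirical Bayes with trend, R 4.3.3), Benjamini-Hochberg threshold 0.05. Python 3.11.15 with numpy 2.4.6, pandas 2.3.3 and matplotlib 3.10.9 made tables and plots. In simulated data for D391N minus control on 54671 transcripts, the test found 33.5% of 200 that had been given a log2 difference of 3, and made 7 false calls, so a low number of calls does not show that few changed.

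Symbols came from a gene name table (88.2% of gene identifiers). Sequences and positions came from GENCODE transcripts in GRCh37, matched by transcript ID because the files use another build. All 125 members had a sequence. The values of 1 host gene and 1 of the U6 guide sequences are not reported here. Fold changes of sums compare mean log2 values. Named are the 10 members of highest mean level, the 5 lowest and 5 highest log2 fold changes among members with at least 10 estimated reads, guides of 5.8S rRNA and U6, SNORD58C and SNORD70, the snoRNP core proteins, DIS3L2 and members beside the threshold. The members and lists were chosen with earlier results of these data known. SNORD17, SNORD35A, SNORD23, SNORD68, SNORD110, SNORD56B, SNORD78 and the SNORD19 copy were named after their values were seen. Alternatives were other pseudocounts, filters and scalings, limma without trend, a replicate block and each library left out; a minimum of 10 estimated reads and the 81 members outside exons of other transcripts were chosen after seeing the data.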

Additional observations from a re-analysis of the deposited data

How the results depend on the processing

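The median log2 fold change of the members stayed negative with pseudocounts of 1 and 0.01 RPKM (-1.28 and -1.57), at a mean of at least 5 RPKM (-1.76, 98 members), with median centring (-1.43), with quantile normalization (-1.40), with at least 10 estimated reads (-1.77, 91 members) and over the 81 members outside exons of other transcripts (-1.28). It was 0.19, in the other direction, over the 323 SNORD transcripts averaging 0.1 RPKM or more and also 0.19 over all 324 with no filter, since most of those added have almost no reads. With single libraries left out it ranged from -2.28 to -0.82, the latter without D391N replicate 2. The number past the threshold was 0 in all these settings other than without D391N replicate 1, where it was 49 (unadjusted p under 0.05 in 40 members with all libraries). Over the omitted libraries it ranged from 0 to 49, the number below in each D391N library from 31 to 92 (92 without D391N replicate 1, 55 without control replicate 2) and the number above from 3 to 5 (5 without D391N replicate 1, D391N replicate 3 or control replicate 3). With quantile normalization 4 were above.

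For the 32 named members, 474 single alternatives were run: 452 left direction and side of the threshold as they were, 15 brought a member past it, all without D391N replicate 1, and 7 turned the direction of 3 members. With single libraries left out SNORD101 ranged from -0.47 to 0.74, SNORD112 from -0.07 to 0.90 and SNORD84 from -0.64 to 0.10. SNORD101 was at -0.47 without D391N replicate 1, -0.04 without D391N replicate 3, -0.14 without control replicate 2 and -0.02 without control replicate 3. SNORD112 was at -0.07 without control replicate 2. SNORD84 was at 0.10 with quantile normalization and at 0.10 without control replicate 1. The causes were not tested.

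Over all transcripts tested, the correlation of deviations between libraries of equal number was 0.0867, 0.055 and -0.111. These values cannot decide whether the numbers pair the libraries for the members, which are a small part of those transcripts. Replicate 2 had the lowest median member level in both conditions (3.30 RPKM with D391N, 27.0 RPKM in controls). With the replicate block the median was -1.50, 0 members passed the threshold and 64 had an unadjusted p under 0.05, and 31 were below and 3 above. Depth limits the 40 members under 10 RPKM and the D391N replicate 2 values of the 62 members with fewer than 3 estimated reads there.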
